A study of Homo sapiens with 9 samples.

Results

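The clustered protocadherin genes are the PCDHA, PCDHB and PCDHG genes, 3 gene families that lie in tandem on human chromosome 5. They were chosen by gene name, as every row of the deposited transcript count table named PCDHA, PCDHB or PCDHG, which gave 84 transcripts of 51 genes among 39276 transcripts of 20878 genes. Of these, 15 were alpha, 13 beta and 23 gamma genes. All 84 transcripts were used to ask how far the shared exons set the counts. For comparisons between cell lines each gene was represented by the transcript with the highest total count over the 9 libraries, so the counts themselves chose the transcript but not the gene. Another 6 beta genes (PCDHB1, PCDHB2, PCDHB3, PCDHB4, PCDHB6 and PCDHB17) were listed at an RPKM (read count scaled by transcript length and library depth) of 0 in every library and were absent from the count table.

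The cells were SW480, an established colorectal cancer line described by its labels as defective in APC, the gene for a scaffold of the complex that degrades beta-catenin. Polyadenylated RNA was sequenced from 3 libraries each of SW480 without a vector, of the line R38.7 carrying the empty pEF vector (CONTROL) and of the line D2.15 carrying pEF with a myc-tagged APC (APC). All were harvested 72 h after plating, and CONTROL and APC, but not SW480, were kept in 1.5 mg/ml G418, the drug that selects for the vector. APC cells were plated at a lower number than the other lines. Each line was plated in triplicate, so each group is 1 line, p-values measure only the spread between its plates, and an effect of APC cannot be told apart from other differences between the lines. The labels describe the purpose as comparing APC-defective with APC-restored cells, with the vector line as the control for other changes.

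Clustered protocadherins are adhesion molecules of the cadherin superfamily, best known from neurons, where each cell uses its own set of isoforms and the extracellular domains bind the same isoform on a neighbouring cell. Every alpha and gamma gene contributes its own large variable exon, which encodes the extracellular, transmembrane and part of the intracellular sequence, and is spliced to 3 constant exons that all genes of the cluster share. Beta genes consist of a single exon and have no constant exons. Isoform choice is made by promoter choice, which depends on the DNA-binding protein CTCF and on cohesin, while the C-type isoforms (PCDHAC1, PCDHAC2, PCDHGC3, PCDHGC4 and PCDHGC5) are used more broadly. DNA methylation of the clusters has been described in several tumour types, colorectal cancer among them.

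The architecture sets what can be counted, and the sequences around the splice junctions are shown for that reason. In the GENCODE 29 annotation (GRCh38, plus strand), which matched 83 of the 84 transcripts, the constant exons spanned 2866 bases for alpha and 2181 bases for gamma, and 18 of 24 alpha and 24 of 47 gamma transcripts held them. The remaining alpha and gamma transcripts ended in or just past their own variable exon and are called single-exon transcripts here. The constant exon next to the variable exons, at chr5:140978949-140979007 for alpha and chr5:141494807-141494865 for gamma, has 59 bases in both clusters and was identical in every transcript that holds it.
Shared alpha exon: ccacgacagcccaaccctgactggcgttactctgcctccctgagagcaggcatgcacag
Shared gamma exon: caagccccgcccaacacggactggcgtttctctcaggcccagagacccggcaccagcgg
Position by position, 39 of 59 bases (66.1%) were the same in the alpha and gamma exons, against 29 of 89 (32.6%) for the constant exon after it. Each line below joins the last 30 bases of a gene's own variable exon, in lower case, to the 20 bases of the shared exon that follow, in capitals.
PCDHA1: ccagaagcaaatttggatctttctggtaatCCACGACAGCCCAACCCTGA
PCDHAC1: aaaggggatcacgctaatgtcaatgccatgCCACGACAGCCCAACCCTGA
PCDHAC2: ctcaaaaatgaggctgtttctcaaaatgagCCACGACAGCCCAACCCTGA
PCDHGB5: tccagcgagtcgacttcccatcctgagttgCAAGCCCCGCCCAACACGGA
PCDHGA11: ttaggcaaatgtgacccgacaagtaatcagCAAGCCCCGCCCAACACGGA
PCDHGC3: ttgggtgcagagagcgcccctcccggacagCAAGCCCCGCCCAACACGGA
The variable exons lie at chr5:140786291-140788684, chr5:140926893-140929325, chr5:140966235-140969331, chr5:141398128-141400524, chr5:141421195-141423660 and chr5:141476003-141478546, in that order. The capitals are the same in the alpha trio and in the gamma trio, so a read confined to the constant exons fits every gene of its cluster.

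All libraries had similar depth, with total counts of 16456738 to 19358025. Levels are given as CPM, counts scaled by TMM library sizes, and 3 counts, the upper limit that a count of 0 allows, were 0.156 to 0.184 CPM. Such limits and the intervals below cover counting error only. Counts of APC itself were 2390 to 2721 in the APC libraries and 753 to 959 in the other 6, a fold of 2.94 against SW480. Levels of 10 epithelial markers were mixed. KRT8 and KRT18, keratins of simple epithelia, had mean levels of 2160 to 2971 CPM in each line, whereas KRT20, a differentiation keratin of the gut, had means of at most 0.143 CPM. The adhesion molecules CDH1 and EPCAM and the tight-junction protein CLDN7 were lower in SW480 and CONTROL than in APC, and KRT18 and the transcription factor CDX2 were higher there, with values given below. With 1 fit of all 9 libraries (edgeR's quasi-likelihood test, adjusted by Benjamini-Hochberg over all genes, threshold 0.05), 14255 genes were tested.

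Apart from those of PCDHAC1 and PCDHAC2, transcripts that held the alpha constant exons had almost the same count within a library. The lowest of the 18 counts was 10, 6 and 7 in SW480 (replicates in order), against 2, 2 and 3 in CONTROL and 88, 67 and 89 in APC. In each library 16 to 18 of them were within 1 read of it. The 13 alpha genes other than PCDHAC1 and PCDHAC2 had between 0 and 1 read of their own in any library, their count being the shared one. For PCDHA11, for example, the counts were 10, 6 and 7 in SW480, 2, 2 and 3 in CONTROL and 89, 67 and 89 in APC, of which 1 read in a single APC library was its own, and for PCDHA1 10, 6 and 8, 2, 2 and 3, and 88, 67 and 89. The deposited counts of these 13 genes were thus 1 measurement repeated 13 times.

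The gamma cluster showed the same structure at a higher level. The lowest of the 24 counts with constant exons was 419, 424 and 421 in SW480, 294, 247 and 257 in CONTROL, and 773, 595 and 675 in APC, and between 19 and 21 of the 24 were within 2% of it. For the 23 single-exon gamma transcripts, only that of PCDHGC3 exceeded 23 reads in any library. PCDHGB8P, a gamma pseudogene with no constant exon, had at most 1 read in each library. Beta transcripts share no exon, and no floor of this kind was seen among them: their counts ranged from 0 to 14.

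**Figure D1:**
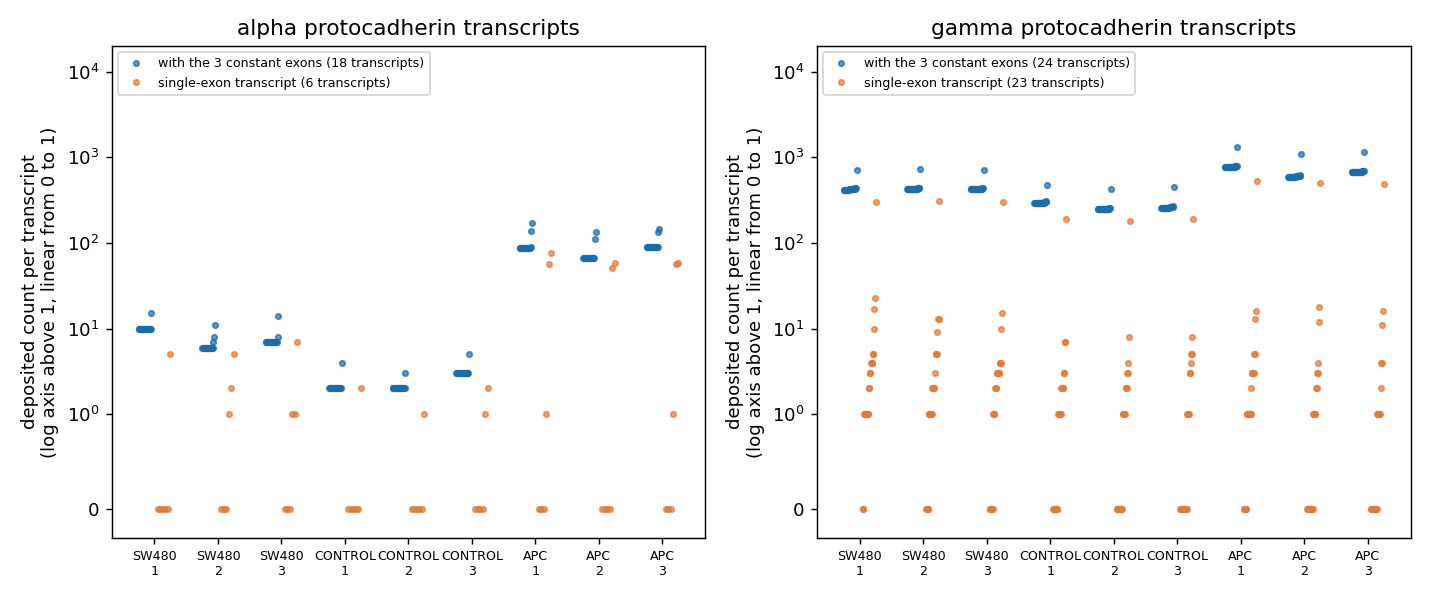
Deposited count of every alpha (left) and gamma (right) transcript in each of the 9 libraries; blue points are transcripts with the 3 constant exons, orange points single-exon transcripts, and the vertical axis is logarithmic above 1 and linear from 0 to 1. In each library the blue points pile up on 1 value, such as 88 for alpha in APC replicate 1, while most orange points lie near 0.

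Taken as deposited, the counts called nearly all testable members in every comparison. Of 39 members tested, 39 were called in APC against SW480, where 72.5% of all genes tested were called. The 15 alpha and 22 gamma genes were higher and the 2 testable beta genes, PCDHB5 and PCDHB14, lower, against a background of 35.6% higher and 36.9% lower. In APC against CONTROL 37 were called, all higher (background 70.2%, with 34.8% higher and 35.4% lower). In CONTROL against SW480 38 were called, all lower (background 50.0%, with 25.3% higher and 24.7% lower). Both APC comparisons share the APC libraries, and both comparisons with SW480 share the SW480 libraries.

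The fold changes split by cluster rather than by gene. Median log2 fold changes of the tested alpha genes were 3.47 in APC against SW480, 5.09 in APC against CONTROL and -1.62 in CONTROL against SW480, and those of the tested gamma genes 0.78, 1.39 and -0.62. Over all genes the median was -0.01 in each comparison. Within the 13 alpha genes other than the C-type pair, the values against SW480 ran only from 3.41 to 3.48, and within the 22 gamma genes from 0.72 to 0.80. These medians count shared reads once for each gene and are no support for a change of any single gene.

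As cluster totals, the shared reads can be described without double counting. Shared alpha reads were 0.412 ± 0.113 CPM (SD, n = 3) in SW480, 0.129 ± 0.025 in CONTROL and 4.64 ± 0.682 in APC, so the mean in APC was 11.3 times that in SW480 and 36.0 times that in CONTROL. The CONTROL mean rests on 2, 2 and 3 reads, at or below the floor of 3 counts, so the 36.0 is imprecise. Shared gamma reads were 22.6 ± 0.0577, 14.8 ± 1.25 and 38.8 ± 4.09 CPM, so the mean in APC was 1.72 times that in SW480 and 2.62 times that in CONTROL. The 3 groups did not overlap in either cluster, with APC highest and CONTROL lowest. In bulk RNA, more cells with the transcript and more transcript per cell cannot be told apart.

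Reads of a gene's own were obtained by subtracting the cluster's lowest count in each library, and the deposited single-exon transcripts gave a second count of them, from the same libraries and largely the same reads. After the subtraction 8 members had enough reads to be tested, the rest having too few to pass the low-count filter. In APC against SW480, 7 were called (background 72.4%): PCDHAC1, PCDHAC2, PCDHGC3 and PCDHGA11 were higher and PCDHGB5, PCDHB5 and PCDHB14 lower. In APC against CONTROL, 5 were called, all higher (background 70.1%): PCDHAC1, PCDHAC2, PCDHGC3, PCDHGA11 and PCDHGB7. In CONTROL against SW480, 4 were called, all lower (background 49.9%): PCDHAC2, PCDHGC3, PCDHGB5 and PCDHB5. A gene reaching the filter through the line where it is high is bound to differ, so these counts describe the testable members and not the families.

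PCDHAC1, a C-type alpha gene, was all but unread outside the APC line. Its single-exon transcript had counts of 0, 2 and 1 in SW480, 0, 0 and 1 in CONTROL and 57, 51 and 58 in APC. The APC libraries stood far above the other 6, none of which passed 2 reads. Over the 3 libraries of each line, 166 counts in APC stood against 3 in SW480, a ratio of 58.8 (exact 95% counting interval 19.8 to 288), and against 1 in CONTROL, a ratio of 171 (30.3 to 6790). Adjusted p-values by edgeR's quasi-likelihood test on these counts were 2.3e-14 and 1.26e-14. On these counts PCDHAC1 passed the low-count filter only through APC, where it was high, so the p-values add no support for a difference beyond the counts. Subtraction gave 50, 43 and 45 own reads in APC, fewer than the single-exon transcript, which is longer than the variable exon (3084 bases as deposited, against 2433 in GENCODE).

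PCDHAC2, the other C-type alpha gene, differed among all lines. Its single-exon transcript had counts of 5, 5 and 7 in SW480, 2, 1 and 2 in CONTROL and 76, 58 and 57 in APC. No library of 1 line overlapped another line. Its own reads, by subtraction, rose in APC by 3.66 ± 0.27 on the log2 scale (SE) against SW480, or 12.7-fold (adjusted p = 3.56e-14), and by 5.31 ± 0.34 against CONTROL (adjusted p = 1.6e-15, edgeR). They fell by 1.65 on the log2 scale in CONTROL against SW480 (adjusted p = 0.0303), a call lost without SW480 replicate 3 (adjusted p = 0.0931) or without any 1 CONTROL library (0.0567 to 0.0871). On own reads PCDHAC2 passed the low-count filter only through APC, where it was high, so its p-values against APC add no support for a difference beyond the counts. GENCODE places an antisense gene over the start of this exon, and since the strand setting of the counting is not given in the sources used here, reads of the pair cannot be told apart.

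Together PCDHAC1 and PCDHAC2 held 134 of 135, 109 of 109 and 102 of 102 own alpha reads in the APC libraries. The exact 95% interval for the share was lowest in APC replicate 1, at 95.9 to 100%. In SW480 they held 5 of 5, 7 of 8 and 7 of 8, counts too small to set the share closely (lower bounds of 47.3 to 47.8%). Per kilobase, shared alpha reads were 0.600 to 0.843 times the summed own reads in APC.

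PCDHGC3, a C-type gamma gene, had the most own reads of any member in every line. Its single-exon transcript had counts of 301, 309 and 299 in SW480, 188, 181 and 189 in CONTROL and 533, 505 and 490 in APC. The lines were separated and ordered as for the shared gamma reads. Per length, the deposited RPKM of this transcript was 5.21 ± 0.111 in SW480, 3.26 ± 0.206 in CONTROL and 9.09 ± 0.0836 in APC (SD, n = 3), against 0.895 ± 0.0654 for PCDHAC1 and 1.19 ± 0.146 for PCDHAC2 in APC. Own reads of PCDHGC3 in APC rose by 0.83 ± 0.07 on the log2 scale against SW480 (1.78-fold, adjusted p = 4.73e-13) and by 1.50 ± 0.07 against CONTROL (2.84-fold, adjusted p = 6.81e-19). They fell by 0.67 in CONTROL against SW480 (1.59-fold, adjusted p = 1.76e-08, edgeR).

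Among the reads assigned to single gamma genes, PCDHGC3 took 301 of 389, 309 of 376 and 299 of 360 in SW480, 187 of 218, 180 of 208 and 187 of 219 in CONTROL, and 532 of 591, 505 of 552 and 489 of 530 in APC. As a share that was 77.4 to 83.1% in SW480, 85.4 to 86.5% in CONTROL and 90.0 to 92.3% in APC, without overlap. The exact 95% intervals of single libraries overlapped between SW480 (72.9 to 86.8%) and CONTROL (80.0 to 90.9%), and between CONTROL and APC (87.3 to 94.4%). The ratio of its own reads to shared gamma reads was 0.71 to 0.729 in SW480, 0.636 to 0.729 in CONTROL and 0.688 to 0.849 in APC, ranges that overlap. PCDHGC4 and PCDHGC5, the other C-type gamma genes, were near the detection limit. Single-exon counts of PCDHGC4 were 2, 3 and 1 in SW480, 3, 0 and 3 in CONTROL and 3, 4 and 4 in APC, and those of PCDHGC5 4, 1 and 1, 1, 1 and 0, and 5, 3 and 2. Neither was testable on its own reads.

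**Figure D2:**
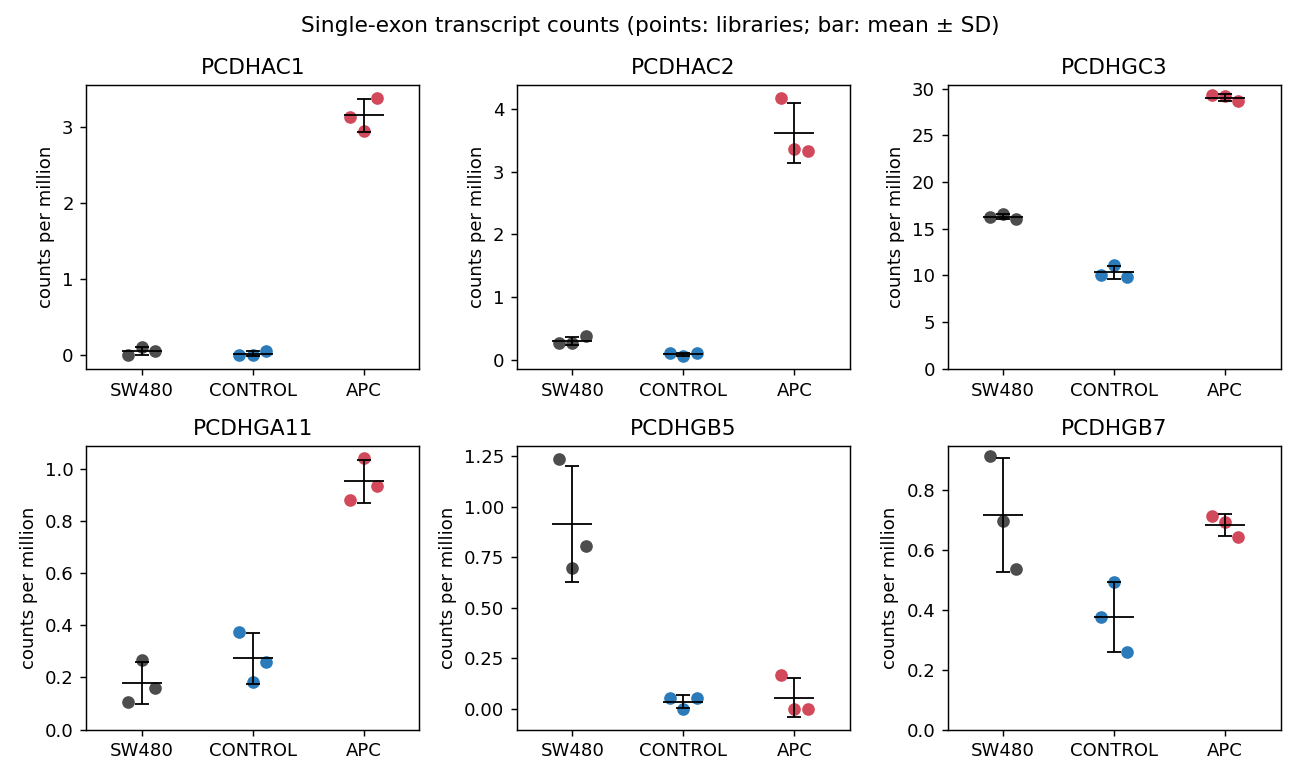
CPM of the single-exon transcript of 6 genes in SW480, CONTROL and APC; points are libraries and the bars are the mean ± SD (n = 3), with a separate linear axis for each gene. PCDHAC1, PCDHAC2, PCDHGC3 and PCDHGA11 are highest in the 3 APC libraries, and PCDHGB5 is read almost only in SW480, at 13 to 23 counts.

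PCDHGA11, a gamma A-type gene, had single-exon counts of 2, 5 and 3 in SW480, 7, 3 and 5 in CONTROL and 16, 18 and 16 in APC. APC libraries lay above the others, and SW480 and CONTROL overlapped. Its own reads rose 4.95-fold in APC against SW480 (log2 2.31 ± 0.42, adjusted p = 9.9e-06) and 3.73-fold against CONTROL (log2 1.90 ± 0.39, adjusted p = 7.47e-05, edgeR). On own reads PCDHGA11 passed the low-count filter only through APC, where it was high, so these p-values add no support for a difference beyond the counts. In CONTROL against SW480 the deposited count gave -0.61 and the own reads 0.41 on the log2 scale, the latter with an adjusted p of 0.584.

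PCDHGB5, a gamma B-type gene, was lower in both vector lines, unlike the shared reads of its cluster, which were highest in APC. Its single-exon counts were 23, 13 and 15 in SW480, 1, 0 and 1 in CONTROL and 3, 0 and 0 in APC. SW480 was high in all 3 libraries, and the lines with a vector were both near 0. The ratio of SW480 to APC was 16.0 (5.18 to 80.2) and that of SW480 to CONTROL 24.7 (6.5 to 210), with adjusted p-values of 1.31e-06 each by edgeR. On own reads PCDHGB5 passed the low-count filter only through SW480, where it was high, so these p-values add no support for a difference beyond the counts. Between APC and CONTROL the log2 difference was 0.55 ± 1.25 (adjusted p = 0.71). As deposited, with shared reads included, the same gene had counts of 442, 437 and 436 in SW480 and 776, 595 and 675 in APC and was called higher in APC (log2 0.72 ± 0.07, adjusted p = 6.07e-11), the opposite direction.

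PCDHGB7, also of the B type, had single-exon counts of 17, 13 and 10 in SW480, 7, 8 and 5 in CONTROL and 13, 12 and 11 in APC. SW480 and APC overlapped, and CONTROL lay below both. Its own reads differed by 0.01 ± 0.33 on the log2 scale between APC and SW480 (adjusted p = 0.982), where the deposited count gave 0.76. Against CONTROL they were 1.84-fold higher in APC (adjusted p = 0.0429, edgeR), a call lost without CONTROL replicate 1 (0.0814), CONTROL replicate 3 (0.178) or any 1 APC library (0.0607 to 0.0913), and also with the replicate number as a block (0.0513). In CONTROL against SW480 its own reads gave -0.87 on the log2 scale (adjusted p = 0.0577) and its single-exon transcript -0.94 (adjusted p = 0.0383).

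The other gamma A and B genes were read at low levels. Their own reads, summed with PCDHGA11, PCDHGB5 and PCDHGB7, came to 3.67 ± 0.698 CPM in SW480, 1.54 ± 0.108 in CONTROL and 2.41 ± 0.414 in APC. SW480 lay above APC and APC above CONTROL without overlap, whereas the shared gamma reads were highest in APC. In all, 1 to 5 of these genes had no own read in the SW480 libraries, 7 to 10 in CONTROL and 5 to 11 in APC. PCDHGA12 had single-exon counts of 1, 2 and 1 in SW480, 0 in all CONTROL libraries and 3, 3 and 4 in APC, where it was highest. PCDHGB2 had 10, 5 and 4 in SW480, 3, 4 and 8 in CONTROL and 2, 2 and 0 in APC, where it was lowest. Neither passed the low-count filter, and both were picked after their values were seen. With no low-count filter, 41 members could be tested on own reads. In APC against SW480, 15 of the 41 were called, 4 higher and 11 lower (background 57.5%, with 5368 genes higher and 5533 lower of 18967). The gamma genes among these 15 were 2 higher (PCDHGC3 and PCDHGA11) and 5 lower: PCDHGB5, PCDHGA5 (log2 -4.44, adjusted p = 0.011), PCDHGA6 (-2.30, 0.0332), PCDHGB2 (-2.06, 0.011) and PCDHGB4 (-2.69, 0.0446, edgeR). In APC against CONTROL 8 of the 41 were called (background 55.3%, with 5262 genes higher and 5224 lower). Of these 5 were higher and 3 lower, with PCDHGA12 higher and PCDHGB2 lower. For CONTROL against SW480 the count was 7 of 41 (background 38.6%, with 3685 genes higher and 3639 lower), all lower, with PCDHGA9 and PCDHGA10 among them. In APC against SW480, 16 of the 28 alpha and gamma genes with an own read had the opposite sign to their deposited count. Only 5 of these 16 were called on their own reads, and others rested on as little as 1 read, as PCDHGA8 did.

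**Figure D3:**
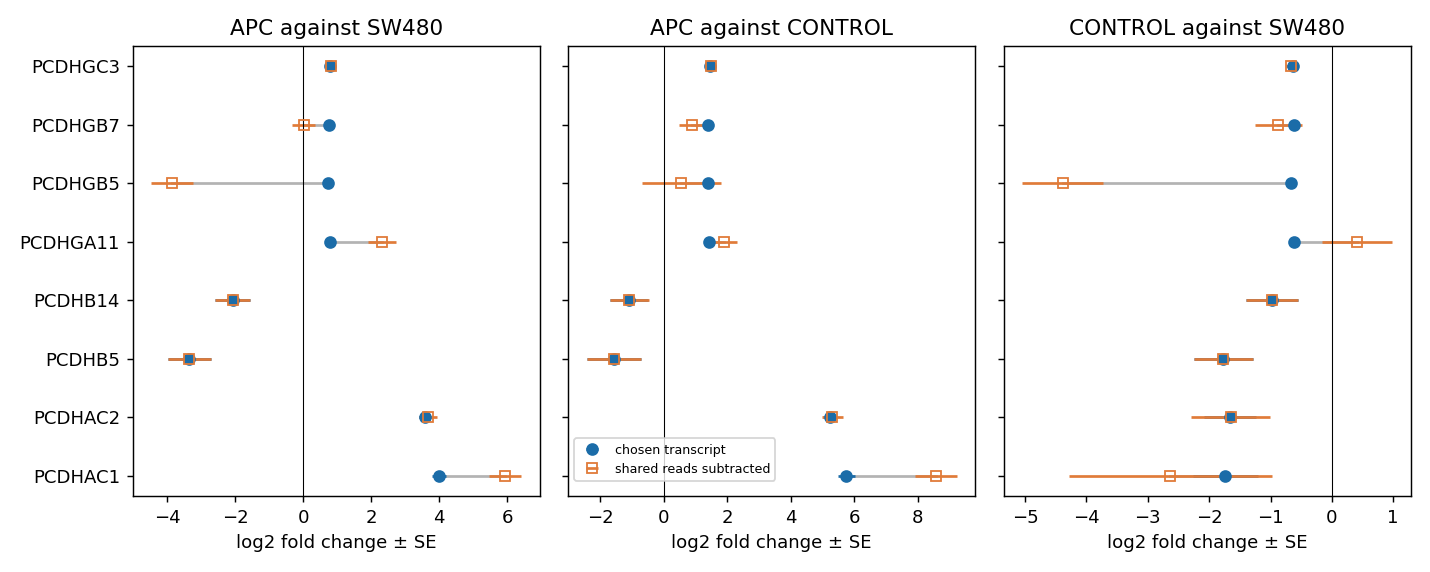
Log2 fold change ± SE of the 8 members testable on their own reads, in APC against SW480, APC against CONTROL and CONTROL against SW480, each panel with its own horizontal scale; filled circles are the chosen transcript as deposited and open squares the same count after subtraction of shared reads. PCDHGB5 crosses 0 in APC against SW480 (0.72 to -3.85), while the beta genes, which share no exon, keep their value.

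Beta genes, whose counts need no such correction, had their lowest summed level in APC. Their summed count was 64, 59 and 57 in SW480, 20, 19 and 35 in CONTROL and 15, 6 and 10 in APC, or 3.22 ± 0.203, 1.35 ± 0.407 and 0.585 ± 0.239 CPM (SD, n = 3). All SW480 libraries were above all CONTROL libraries, which were above all APC libraries. The mean in SW480 was 2.39 times that in CONTROL and 5.5 times that in APC. Per gene, 7 of the 13 beta genes were lower in every APC library than in any SW480 library (30.4% of the 18977 genes with a count), 3 were lower in APC than in CONTROL (29.9%) and 7 in CONTROL than in SW480 (23.1%), and none was higher without overlap in any of these.

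PCDHB5 had counts of 10, 14 and 12 in SW480, 2, 2 and 6 in CONTROL and 0, 1 and 2 in APC. SW480 was above both vector lines, which met at 2 reads. The ratio of SW480 to APC was 11.3 (3.57 to 57.3), with an adjusted p of 1.68e-05 by edgeR, and its level fell by 1.77 on the log2 scale in CONTROL against SW480 (adjusted p = 0.00269). Between APC and CONTROL the change was -1.58 ± 0.85 (adjusted p = 0.0947). Without SW480 replicate 3 it no longer passed the low-count filter, and its 2 calls were lost. PCDHB5 passed that filter only through SW480, where it was high, so these p-values add no support for a difference beyond the counts.

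PCDHB14 had counts of 12, 12 and 13 in SW480, 4, 5 and 9 in CONTROL and 6, 1 and 1 in APC. SW480 was highest, and APC replicate 1 fell within the CONTROL range. Its level fell by 2.07 ± 0.51 on the log2 scale against SW480 (adjusted p = 0.00056). The change was -1.09 ± 0.60 against CONTROL (adjusted p = 0.106, and 0.0112 without APC replicate 1) and -0.98 ± 0.42 in CONTROL against SW480 (adjusted p = 0.0534, edgeR). PCDHB14 too passed the low-count filter only through SW480, where it was high, so its call adds no support for a difference beyond the counts.

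PCDHB13 had counts of 12, 7 and 11 in SW480, 4, 5 and 9 in CONTROL and 1, 1 and 0 in APC, so that APC was lowest and the other lines overlapped. It did not pass the low-count filter with all libraries. It passed when any 1 library other than SW480 replicates 1 and 3 was left out, which loosens the filter. It was then called lower in APC against both lines (log2 -3.95 to -3.10 against SW480, -3.27 to -2.42 against CONTROL). PCDHB13 passed through SW480, where it was high, so these calls add no support for a difference. The ratio of SW480 to APC was 14.1 (3.58 to 122) and that of CONTROL to APC 8.74 (2.09 to 77.7). PCDHB9, the fourth most abundant beta gene, had 5, 3 and 1, 3, 2 and 3, and 2, 1 and 0 counts, and SW480 and APC overlapped. The remaining 9 beta genes had at most 9 reads in any library. Among them PCDHB11 had 2, 9 and 2 in SW480, 3, 1 and 3 in CONTROL and 0 in all APC libraries, and PCDHB8 had 6, 3 and 4, 1, 1 and 0, and 0, 0 and 1. When every gene with a count was tested, 6 beta genes (PCDHB5, PCDHB7, PCDHB8, PCDHB11, PCDHB13 and PCDHB14) were lower in APC against SW480 (background 28.9% lower), 2 (PCDHB11 and PCDHB13) in APC against CONTROL (27.7%) and 2 (PCDHB5 and PCDHB8) in CONTROL against SW480 (18.8%), and no beta gene was called higher.

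**Figure D4:**
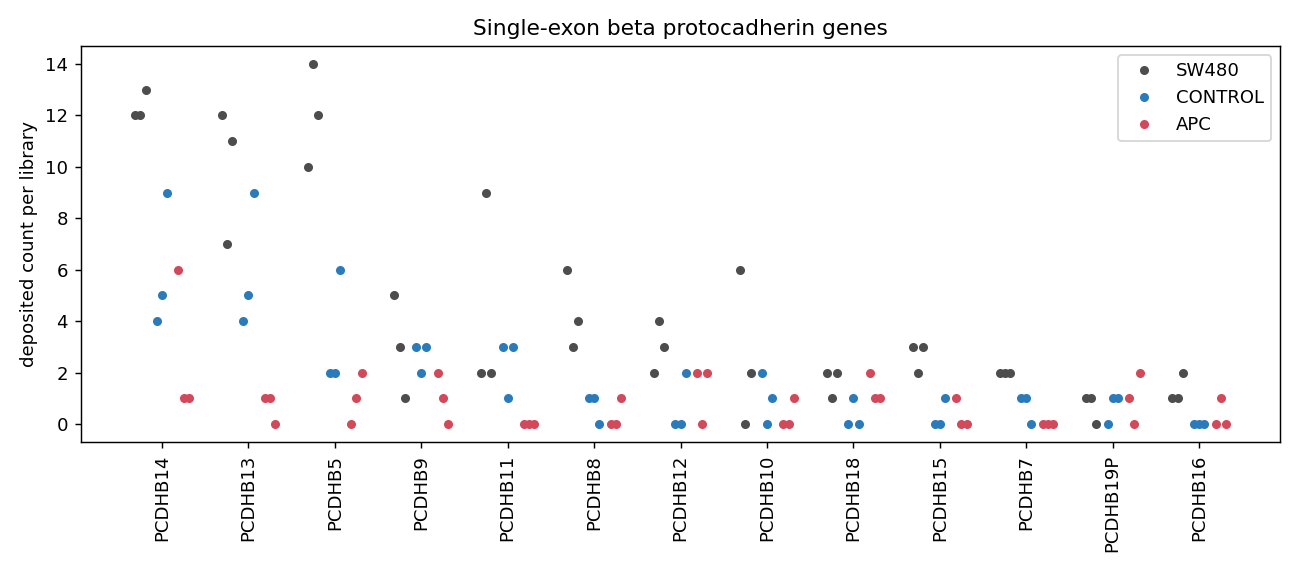
Deposited counts of the 13 beta genes in each library, ordered from left by mean CPM, with SW480 in dark grey, CONTROL in blue and APC in red on a linear axis. The 4 genes with the highest mean are PCDHB14, PCDHB13, PCDHB5 and PCDHB9, and no count exceeds 14.

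The promoters of members that differed are shown because isoform choice is made there. In the RefSeq promoter table (GRCh38.p14, 250 bases before to 50 after a gene's start), 43 members were matched through 48 windows. The core of the conserved element of protocadherin promoters, CGCT on either strand, was present in 47 of the 48 (97.9%) and in 70.0% of all 35116 windows. A core of the CTCF motif, CNAGNNGGC on either strand, was present in 4 of 48 (8.33%, against 24.6% of all), and TATAAA in 6 of 48 (12.5%, against 11.5%). These shares were not matched for base composition. Median G or C was 37.3% in alpha, 38.8% in beta and 47.3% in gamma windows, against 58.7% in all. Whether the CTCF core was rarer than composition allows was not tested. Upstream stretches that overlap no annotated exon follow, with CGCT or its reverse complement in capitals.
PCDHAC1: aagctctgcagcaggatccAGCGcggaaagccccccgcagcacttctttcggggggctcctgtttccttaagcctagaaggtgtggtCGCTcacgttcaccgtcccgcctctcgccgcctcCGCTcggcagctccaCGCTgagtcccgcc
PCDHGC3: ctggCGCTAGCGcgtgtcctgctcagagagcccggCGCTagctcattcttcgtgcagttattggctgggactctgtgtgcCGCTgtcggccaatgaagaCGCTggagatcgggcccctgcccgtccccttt
PCDHB5: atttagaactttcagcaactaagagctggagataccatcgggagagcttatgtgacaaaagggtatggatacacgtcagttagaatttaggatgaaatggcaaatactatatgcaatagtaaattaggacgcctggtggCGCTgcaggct
PCDHGB5: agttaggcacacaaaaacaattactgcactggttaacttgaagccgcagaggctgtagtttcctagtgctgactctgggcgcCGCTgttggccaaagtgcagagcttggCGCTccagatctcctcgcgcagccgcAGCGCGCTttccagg
They lie at chr5:140926149-140926298, chr5:141475816-141475946, chr5:141135056-141135205 and chr5:141397797-141397946 on the plus strand. The number of CGCT matches shown is 4, 5, 1 and 4. The windows also differ in base composition: that of PCDHAC1 was 66.0% and that of PCDHAC2 63.0% G or C. The other 11 matched alpha genes had 33.7 to 40.3%, and the gamma median was 47.3%. The PCDHAC1 and PCDHAC2 windows were nearer to the median of all windows, 58.7%, than the other alpha windows were. Windows of PCDHGC3 and PCDHGC4, and a window each of PCDHGB5 and PCDHGB6, were above that median too. Most of the PCDHAC2 window lies inside its variable exon as GENCODE places it, so its share is not that of an upstream stretch. A match to such short motifs describes the letters and not a bound site.

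Genes next to the clusters had smaller fold changes than the cluster medians of alpha and gamma against SW480. The 10 nearest tested genes on each side and TAF7, a subunit of the basal transcription machinery that lies between the beta and gamma clusters, had log2 fold changes of -0.33 to 0.39 in APC against SW480, with 6 higher and 7 lower of 21 and a median of -0.07. In APC against CONTROL the range was -0.44 to 1.13 (6 higher, 9 lower), the upper end being CD14, a receptor for bacterial lipopolysaccharide, and in CONTROL against SW480 -1.03 to 0.37 (6 higher, 5 lower). The shares over all genes were 35.6% higher and 36.9% lower in APC against SW480 and 34.8% and 35.4% in APC against CONTROL. In CONTROL against SW480 they were 25.3% and 24.7%. SLC25A2, a mitochondrial carrier gene between the clusters, had too few reads to be tested. PCDH1, the nearest protocadherin outside the clusters, was higher by 0.13 ± 0.06 against SW480 (adjusted p = 0.0417) and 0.34 ± 0.06 against CONTROL (adjusted p = 3.94e-06, edgeR).

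**Figure D5:**
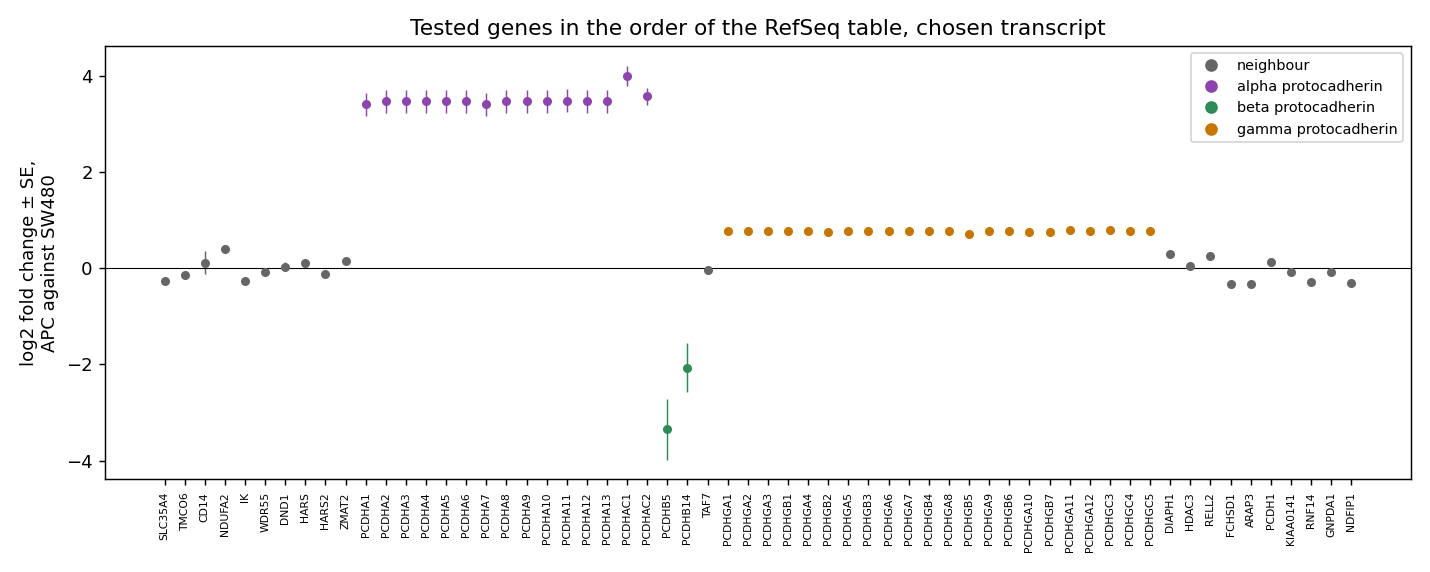
Log2 fold change ± SE in APC against SW480 for each tested gene, in the order of the RefSeq gene table, with neighbours in grey, alpha genes in purple, beta genes in green and gamma genes in orange. Neighbours lie between -0.33 and 0.39, and the flat runs of alpha genes near 3.47 and gamma genes near 0.78 are repeats of shared reads.

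Regulators of the clusters changed in both directions. Of 19 genes for CTCF, cohesin, DNA methylation and related silencing factors, all were tested: 5 were higher and 10 lower in APC against SW480, 6 higher and 6 lower against CONTROL, and 4 higher and 6 lower against both. Over all genes, 35.6% were higher and 36.9% lower against SW480, 34.8% and 35.4% against CONTROL, and 27.8% and 28.0% against both. DNMT3A, a de novo DNA methyltransferase, had 15.9 ± 0.224 CPM in SW480, 15.2 ± 0.735 in CONTROL and 7.21 ± 0.844 in APC, and fell by 1.14 on the log2 scale against SW480 (adjusted p = 5.07e-13) and by 1.08 against CONTROL (adjusted p = 2.98e-12, edgeR). SMC3, a cohesin subunit, rose by 0.42 and 0.45, and ZNF274, a zinc-finger repressor, by 0.72 and 0.50, against SW480 and CONTROL in turn. For CTCF itself the change was -0.20 against SW480 (adjusted p = 0.000229) and -0.08 against CONTROL (adjusted p = 0.147).

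Of 20 genes for binding partners and processing enzymes, 19 were tested, and 7 were higher and 2 lower against both lines (27.8% and 28.0% over all genes). CYFIP2, of the actin-regulating WAVE complex that clustered protocadherins can recruit, rose by 0.95 ± 0.08 and 1.11 ± 0.08. PTK2B, a focal adhesion family kinase bound by the constant domains, rose by 1.21 ± 0.06 and 0.65 ± 0.06. FYN, a Src family kinase, fell by 0.43 and 0.88, and ABI2, another WAVE component, by 0.28 and 0.35, against SW480 and CONTROL in turn. ADAM10, the sheddase that cleaves these proteins, was higher by 0.47 and 0.43 (adjusted p = 7.58e-11 and 6.39e-10, edgeR). ADAM10 and CTCF were named after their values were seen.

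Of 11 protocadherin genes outside the clusters, 10 had a row of counts and only PCDH1 was tested, PCDH9 and PCDH15 being at 0 in all libraries. PCDH1 had means of 41.1 CPM in SW480, 35.5 in CONTROL and 45.0 in APC, and no other gene of that list had a mean above 0.448 CPM. Of 9 other cadherin genes 4 were tested, with 3 higher and 1 lower in APC against each other line and 2 higher against both. Over all genes, 35.6% were higher and 36.9% lower against SW480, 34.8% and 35.4% against CONTROL, and 27.8% higher against both. CDH1, the epithelial E-cadherin, rose from 7.23 ± 0.897 CPM in SW480 and 8.73 ± 1.59 in CONTROL to 133 ± 4.49 in APC (4.20 and 3.91 on the log2 scale), and CDH3, P-cadherin, rose by 4.74 and 4.62. The other two differed in direction between the comparisons: CDH11 was lower against SW480 (-1.64) and higher against CONTROL (1.44), and CDH13 was higher against SW480 (0.25) and lower against CONTROL (-0.14).

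Marker lists of cell types went in different directions. Over all genes, 27.8% were higher and 28.0% lower in APC against both lines, the background for the counts of each list. Of 12 neuronal markers 4 were tested, and 4 were lower in APC against both lines. Among them were TUBB3, a neuronal tubulin that fell from 117 ± 7.28 CPM in SW480 to 26.7 ± 2.76, and SNAP25, a synaptic vesicle fusion protein (-2.64 and -2.44 on the log2 scale). The summed level of the list was 123 to 138 CPM in SW480, 78.3 to 85.4 in CONTROL and 26.6 to 31.0 in APC. Most of that sum was TUBB3 in SW480 and in APC. The beta genes had this order of lines, and so had the fibroblast markers. DCX and ELAVL3, which define neurons, were at 0 in all libraries. Epithelial markers summed to 5480 to 6120, 6090 to 6390 and 6500 to 6680 CPM, with 5 of 9 tested higher and 2 lower in APC against both. The adhesion molecule EPCAM (2.95 and 3.17) and the tight-junction protein CLDN7 (4.61 and 4.34) rose, and the intestinal transcription factor CDX2 (-0.86 and -0.73) and KRT18 (-0.09 and -0.37) fell. Leukocyte markers summed to 18.4 to 19.2 CPM in SW480, at least 11.8 in CONTROL, where every library lay below SW480, and 37.8 to 40.0 in APC, with 3 of 4 tested higher against both, ITGAM (4.09 and 4.56) and CORO1A (1.15 and 1.95) among them, and CD3E at a mean of at most 0.0538. Fibroblast markers summed to 42.7 to 46.9, 36.3 to 40.6 and 17.1 to 17.9 CPM in the same order of lines, with PDGFRB (-5.56 and -5.26) and FBLN1 (-2.42 and -2.22) lower against both, of 3 tested, and LUM at 0 in SW480 and CONTROL. Endothelial markers summed to at most 1.52 CPM (0 of 1 tested called against either line, with none at an unadjusted p under 0.05 by edgeR or DESeq2). The part of these genes in the protocadherin results was not tested.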

How the data were processed

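RNA of 3 libraries per line was measured. Per the submitters' processing notes, reads were handled with Trimmomatic, TopHat and GATK on hg19, while counting tool, annotation release and strand are, in the sources used here, not given. Deposited read counts per transcript are unnormalized, and the authors' RPKM values were rebuilt from those counts for 100% of transcripts (relative tolerance 0.0001), so both are 1 measurement. Each gene was represented by the transcript with the highest total. Counts were scaled by TMM, filtered with filterByExpr and fitted over 9 libraries with edgeR 4.0.16 (quasi-likelihood, robust, R 4.3.3), with Benjamini-Hochberg adjustment over 14255 genes and a threshold of 0.05, after the script was tested on simulated data. DESeq2 1.42.0 and limma 3.58.1 served as alternatives. A read lying in shared exons was counted for every transcript holding them, so own reads were the count minus the lowest count among such transcripts of the cluster, per library. The subtracted counts (14224 genes tested) and single-exon transcripts were refitted likewise, and 18977 genes (18967 after subtraction) were fitted with no filter.

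Named members were the 4 with the highest mean level per cluster, up to 3 per direction and comparison with the lowest adjusted p among those called without overlap, and the C-type genes. From other lists, 2 genes per direction with the lowest adjusted p called against both lines were named, except 1 gene that is not reported here. Members and lists were chosen with earlier results of these data known. Gene coordinates and sequences come from GENCODE 29 and RefSeq (GRCh38), not from the files' build.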

Additional observations from a re-analysis of the deposited data

How the results depend on the processing

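The numbers of members called moved with the treatment of shared reads and with a minimum fold. In APC against SW480, 39 calls became 7 with single-exon transcripts, 7 with shared reads subtracted, 15 (4 higher and 11 lower, against 37 and 2) with subtraction and no low-count filter (chosen after seeing the data), and 17 with a minimum fold of 2. In APC against CONTROL, 37 became 5, 5 and 8 under the first 3 of these. In CONTROL against SW480, 38 became 5, 4 and 7, 25 with only the 6 libraries compared, and 0 by edgeR's glmTreat with a minimum fold of 2, where 38 were called without a minimum fold. Leaving out 1 library gave 38 to 40, 37 to 39 and 27 to 39 calls in the 3 comparisons, and 6 to 8, 5 to 6 and 3 to 5 after subtraction. The 27 came without SW480 replicate 1 or without CONTROL replicate 1, when 11 alpha genes that share 1 set of reads were lost.

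Among the named members, directions reversed for 9 values. Over all 28 alpha and gamma genes with an own read, subtraction with no filter gave the opposite sign to the deposited count for 16, 7 and 5 in the 3 comparisons. Of these, 5, 1 and 0 were called on their own reads. PCDHGB5 in APC against SW480 was -3.85 with single-exon transcripts, -3.85 with subtraction and -3.84 with subtraction and no filter. PCDHGB7 there was -0.06 with its single-exon transcript, and PCDHA1 -1.84 with subtraction and no filter, on 1 own read. In CONTROL against SW480, PCDHGA11 was 0.61, 0.41 and 0.41 and PCDHGC4 0.29 with subtraction and no filter. These alternatives differ by construction in the reads counted. Replicate numbers did not pair the samples (correlations of same-numbered deviations from -0.069 to 0.106), and a replicate block gave 39, 37 and 38 calls. Low counts limited the beta and most alpha and gamma genes, since 3 counts correspond to 0.156 to 0.184 CPM.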
